A study of Homo sapiens with 6 samples.

Results

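The genes described here encode the enzymes that build purine and pyrimidine nucleotides and the folate and serine steps that feed them. They were taken by name, 36 genes in all, through the probe sets whose platform annotation gave exactly 1 gene symbol and that symbol was on the list. All 36 symbols were found among the 19775 genes named in this way, and 34 of them were bright enough to be among the 13765 genes tested. The list holds 13 genes of purine synthesis and salvage, 6 of pyrimidine synthesis, 9 of the supply of deoxynucleotides, 5 of folate one-carbon metabolism and 3 of serine synthesis.

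The cells were RL, an established human B lymphoid line from a follicular lymphoma that carries the t(14,18) translocation. In 3 samples the cells had been grown for 10 days as multicellular aggregates (MALC), and in the other 3 they came from suspension culture in exponential growth. No sample was treated, and both culture forms were of this single line. Total RNA of each sample (200 ng) was hybridised to 1 Affymetrix U133 Plus 2.0 array, on which each transcript is read by 1 or more sets of short probes. The labels do not say whether the 3 samples of a group were grown separately, and the p-values then reflect no more than sample-to-sample spread, part of which may be technical. Suspension cells in exponential growth were the only comparison, so growth phase, age of the culture and aggregation cannot be told apart.

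Cells make purines by building the ring on a ribose phosphate until inosine monophosphate (IMP) is reached, which is then turned into AMP or GMP. Pyrimidines are made as a free ring that becomes uridine monophosphate (UMP), from which the cytidine and thymidine nucleotides follow, and ribonucleotide reductase turns ribonucleotides into the deoxynucleotides of DNA. Serine gives 1-carbon units to folate, and these units are used in the purine ring and in thymidylate. Proliferating lymphocytes draw on all of these routes, and several of the enzymes are targets of drugs used against lymphoid cells.

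PPAT and PAICS, which encode enzymes of the purine route, are shown first because they are divergent neighbours whose promoter windows overlap and whose signals were both lower in MALC. In RefSeq (GRCh38.p14) the PPAT window, 250 bases before to 50 bases after its start, lies at chr4:56435566-56435865 on the minus strand, and the PAICS window at chr4:56435502-56435801 on the plus strand. The windows share 236 bases, and the starts lie 137 bases apart. A single E-box, CACGTG, falls in the shared stretch, and it stands in capitals in the PPAT window, written 5′ to 3′ on the strand of PPAT.
PPAT: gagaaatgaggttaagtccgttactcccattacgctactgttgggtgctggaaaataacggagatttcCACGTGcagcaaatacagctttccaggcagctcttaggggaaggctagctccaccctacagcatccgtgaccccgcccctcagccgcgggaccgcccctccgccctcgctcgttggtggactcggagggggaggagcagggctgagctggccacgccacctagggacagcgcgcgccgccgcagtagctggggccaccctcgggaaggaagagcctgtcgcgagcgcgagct

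Of the 34 tested genes, 24 were lower in MALC, 3 were higher and 7 did not pass the threshold of 0.05 on the adjusted p (limma, Benjamini-Hochberg over all genes tested). Over all genes tested, 23.7% were lower and 19.0% were higher in MALC. The 3 MALC values lay below the 3 suspension values in 24 of the genes, against 33.8% of all genes tested, and above them in 3, against 23.1% of all genes tested. The genes whose groups did not overlap were the same 27 that passed the test. The median log2 change, MALC minus suspension, was -0.38 over the 34 genes and -0.06 over all genes tested. Because the genes were chosen with earlier results of these data known, the values over all genes are not a blind comparison. Each of the 34 lay above the brightness filter (a signal of 53.4) in both groups taken separately, and the lowest group mean among them was a signal of 140.4. Samples 2 and 3 were nearly alike in both groups, and with these averaged to 1 sample, a fit added after seeing the data, 13 of the 34 genes passed as lower and 2 as higher. Whether fewer cells held these transcripts or each cell held less of them cannot be told apart in such samples.

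The branches differed in their counts. In purine synthesis and salvage 12 of 13 genes were lower and 1 was higher (median log2 change -0.45). In pyrimidine synthesis 4 of 6 were lower and 1 was higher (median -0.62). In deoxynucleotide supply 7 of 9 were lower and none was higher (median -0.36). Among the 3 tested folate genes 1 was lower and 1 higher (median -0.05), and none of the 3 serine genes passed (median -0.23). These counts are to be read against the 23.7% lower and 19.0% higher over all genes tested. Lists of 3 tested genes are too short to be told apart from these shares. The difference between branches was not tested.

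**Figure D1:**
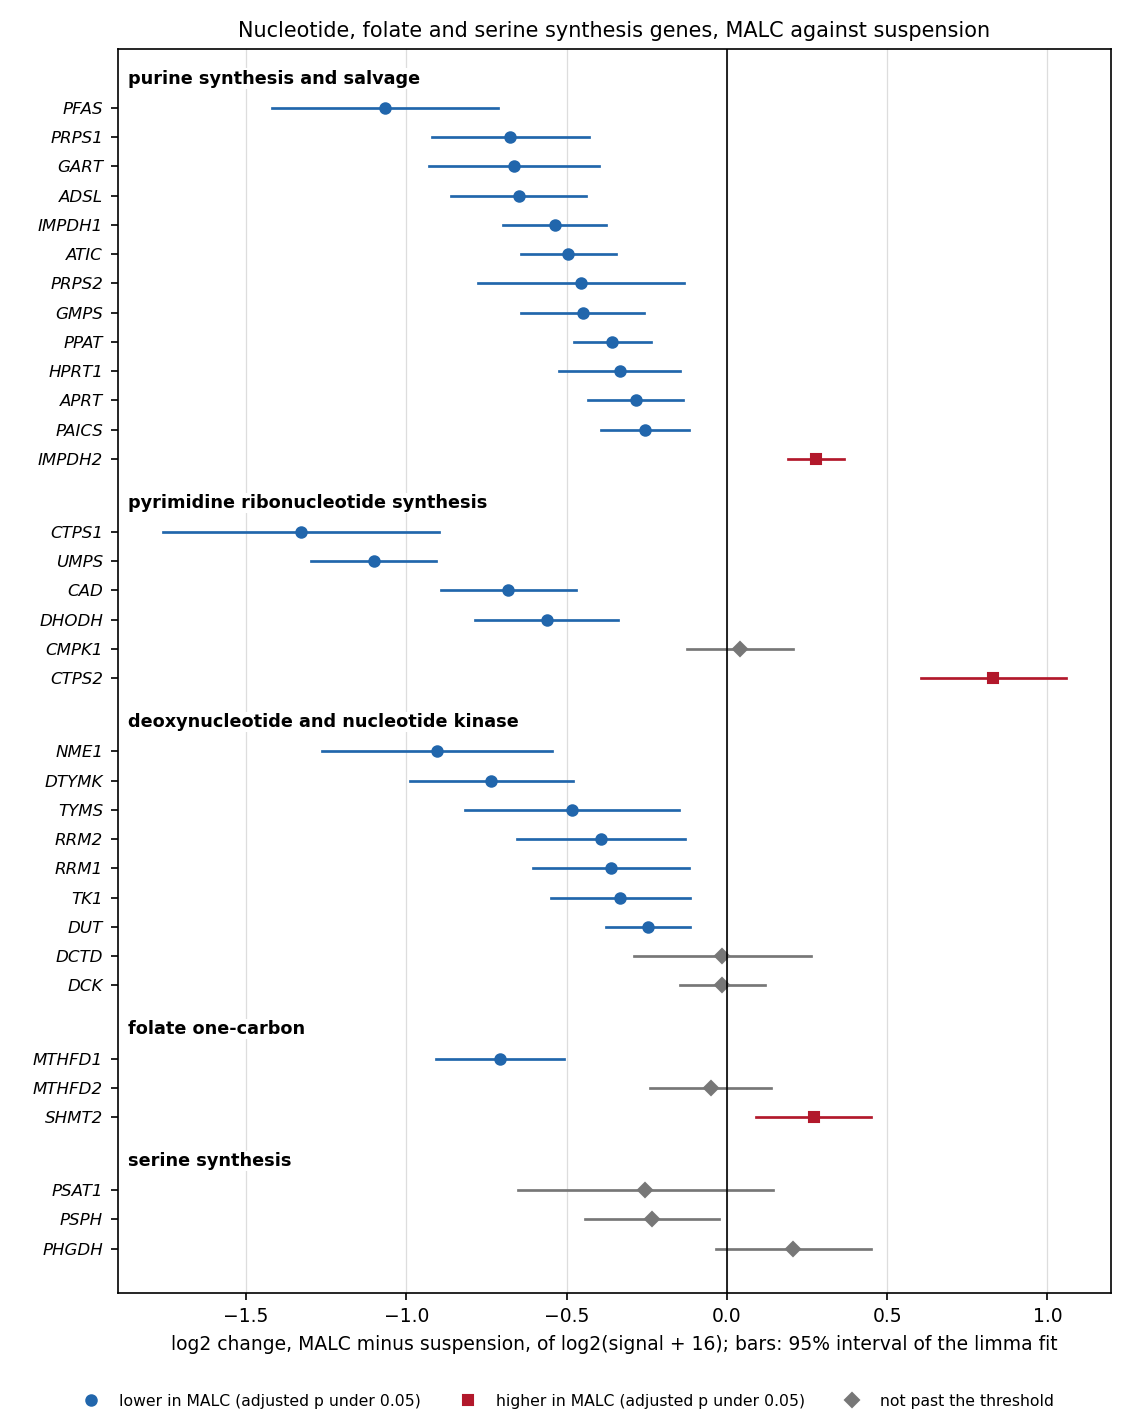
Log2 change, MALC minus suspension, of log2(signal + 16) for the 34 tested genes, by branch; points are estimates and bars the 95% intervals of the limma fit. The changes run from -1.33 (CTPS1) to 0.83 (CTPS2), with 24 genes lower in MALC, 3 higher and 7 not past the threshold.

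The 6 genes of the route to IMP were all lower in MALC, with a median log2 change of -0.57. PPAT, which encodes the enzyme of the committed step, had signals of 2664, 2696 and 2600.4 in MALC, against 3415, 3359 and 3439 in suspension, a log2 change of -0.36 (SE 0.051, adjusted p = 0.0015). The MALC values lay close together and well below all suspension values, although a dim probe set of PPAT moved the other way, as described with the probe sets. GART, a trifunctional enzyme that includes a folate-dependent formyl transfer, had signals of 1291.5, 1087 and 1034 in MALC, against 2061, 1678 and 1698 in suspension (log2 change -0.66, SE 0.11, adjusted p = 0.0030). PFAS, an amidotransferase of the route, changed most among the purine genes. It had signals of 881, 633 and 569 in MALC, against 1551, 1393 and 1401 in suspension (log2 change -1.07, SE 0.15, adjusted p = 0.00144). MALC 1 was the highest of the MALC samples for GART and PFAS, and still below every suspension sample.

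PAICS, a bifunctional enzyme of the middle of the route, had signals of 7708, 7103 and 6687 in MALC, against 8562, 8319 and 8752 in suspension. Its log2 change was -0.26 (SE 0.059, adjusted p = 0.0107). ADSL, which acts both on the way to IMP and on the way to AMP, had 4939, 4436 and 3982 in MALC, against 7614, 6644 and 6687 in suspension (log2 change -0.65, SE 0.090, adjusted p = 0.0013). ATIC ends the route with a folate-dependent formyl transfer and then the closing of the ring. Its mean signal was 3800 ± 231 in MALC and 5356 ± 247 in suspension (SD, n = 3 each), with a log2 change of -0.49 (adjusted p = 0.00103). In the brightest probe set of each gene, PAICS thus moved least of the 6, and PFAS most. The place of PAICS depended on the probe set. Its other probe sets changed by -0.37 (adjusted p = 0.00551) and -0.49 (adjusted p = 0.00307). With the mean of probe sets PAICS changed by -0.37 and PPAT by -0.08.

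PRPP, the activated ribose that starts the route and serves salvage, is made by PRPS1 and PRPS2. PRPS1 had signals of 2603, 2098 and 1962 in MALC, against 3459, 3699 and 3443 in suspension (log2 change -0.68, SE 0.11, adjusted p = 0.00204). PRPS2 had 1279, 953 and 908 in MALC, against 1594, 1345 and 1346 in suspension (log2 change -0.45, SE 0.14, adjusted p = 0.0315). The lowest suspension value of PRPS2 was close to the highest MALC value. Its call was lost when any 1 sample other than MALC 1 was left out, with adjusted p up to 0.112. The salvage transferases were lower too: HPRT1, for hypoxanthine and guanine, by a log2 change of -0.33 (adjusted p = 0.0133), and APRT, for adenine, by -0.28 (adjusted p = 0.00943). Without MALC 2 the adjusted p of HPRT1 was 0.0553.

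The GMP branch was the only part of the purine list in which a gene rose. IMPDH1, 1 of the 2 isoenzymes of the rate-limiting step to GMP, had signals of 578, 548 and 527 in MALC, against 805, 838 and 779 in suspension (log2 change -0.54, SE 0.069, adjusted p = 0.00102). IMPDH2, the isoenzyme known to be induced in proliferating lymphocytes, had 11405, 10872.5 and 11251 in MALC, against 9101, 9336 and 9191 in suspension (log2 change 0.28, SE 0.038, adjusted p = 0.00121). Both differences were larger than the spread within either group, in opposite directions. Each of the 2 genes was read by only 1 probe set. That of IMPDH2 is an _s_at probe set, a kind that can match several transcripts. IMPDH2 was therefore not tested in the fit without such probe sets. GMPS, which completes GMP, was lower by a log2 change of -0.45 (adjusted p = 0.00404), with a mean signal of 3078 ± 317 in MALC and 4197 ± 164 in suspension (SD, n = 3 each).

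The 3 genes of UMP synthesis were lower in MALC. CAD, the trifunctional protein of the first steps, had signals of 663, 639.7 and 553 in MALC, against 1069, 985 and 947 in suspension (log2 change -0.68, SE 0.090, adjusted p = 0.00111). DHODH, the mitochondrial dehydrogenase of the route, was the dimmest of the lower genes, with 208, 168 and 168 in MALC, against 289, 279 and 255 in suspension (log2 change -0.56, SE 0.096, adjusted p = 0.00296). UMPS, which forms UMP, had 1176, 1068 and 956 in MALC, against 2298.5, 2338 and 2266 in suspension (log2 change -1.10, SE 0.084, adjusted p = 0.00022). Every MALC signal of UMPS lay far below every suspension signal.

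Cytidine triphosphate synthetase turns UTP into CTP, and its isoenzymes moved in opposite directions. CTPS1, the isoenzyme known to be needed for the expansion of activated lymphocytes, had signals of 1322, 864 and 756 in MALC, against 2555, 2374 and 2334 in suspension, a log2 change of -1.33 (SE 0.18, adjusted p = 0.00132). It was the largest fall of the 34 genes. CTPS2 had signals of 1467, 1724 and 1746 in MALC, against 832, 981 and 938 in suspension, a log2 change of 0.83 (SE 0.097, adjusted p = 0.000719), the largest rise of the 34. CMPK1, the kinase of UMP and CMP, did not pass (log2 change 0.04, adjusted p = 0.666), and its groups overlapped.

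**Figure D2:**
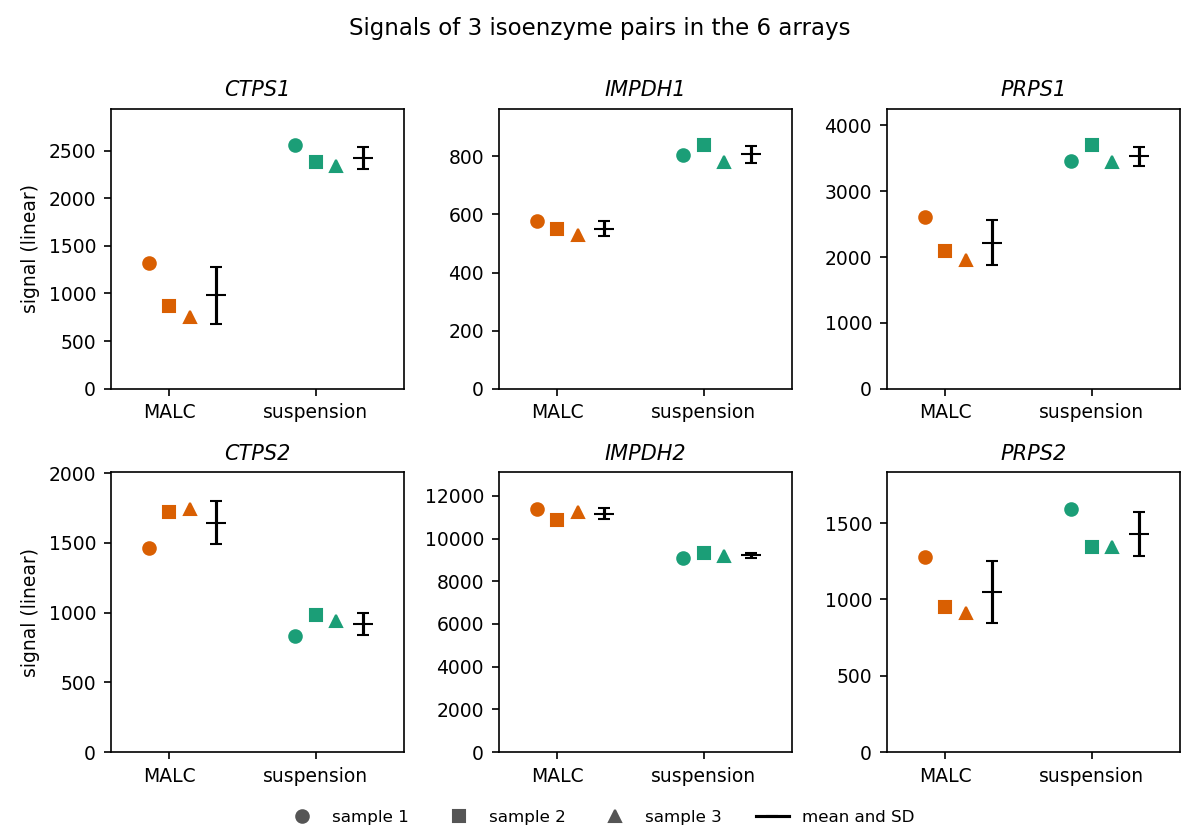
Linear signals of the isoenzyme pairs CTPS1 and CTPS2, IMPDH1 and IMPDH2, and PRPS1 and PRPS2 in 3 MALC (left) and 3 suspension arrays (right); each symbol is a sample and the black marks are mean and SD. CTPS1 and IMPDH1 lie lower and CTPS2 and IMPDH2 higher in MALC with no overlap, while both PRPS genes lie lower; heights are not comparable between genes.

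The opposite movement was also read within each array, as the log2 ratio of the isoenzymes' values. Probe sets differ in brightness for the same amount of RNA, so only the difference between culture forms has a meaning, not the level of the ratio. The ratio of CTPS2 to CTPS1 was 2.16 higher in MALC than in suspension on the log2 scale (0.77 ± 0.55 in MALC and -1.39 ± 0.19 in suspension, SD, n = 3 each). That of IMPDH2 to IMPDH1 was 0.82 higher (4.30 ± 0.061 in MALC and 3.49 ± 0.042 in suspension). All 3 MALC ratios lay above all 3 suspension ratios in both pairs, which follows from the opposite separation of the genes themselves, so the ratios are given with no test. For PRPS2 to PRPS1 the ratio was 0.22 higher (-1.08 ± 0.057 in MALC and -1.30 ± 0.17 in suspension), with overlapping groups.

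Most genes of deoxynucleotide supply had lower signals in MALC. NME1, a nucleoside diphosphate kinase, had signals of 10281, 7061 and 6477 in MALC, against 15204.5, 14439 and 14094 in suspension (log2 change -0.90, SE 0.15, adjusted p = 0.00294). DTYMK, which phosphorylates thymidylate, had 1794, 1524 and 1398 in MALC, against 2898, 2564 and 2400.5 in suspension (log2 change -0.74, SE 0.11, adjusted p = 0.00175). For both genes the highest MALC value was sample 1 and stayed below every suspension value.

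TYMS makes thymidylate with a folate carbon, and it had signals of 3830, 2827 and 2652 in MALC, against 4846, 4101 and 3965 in suspension (log2 change -0.48, SE 0.14, adjusted p = 0.0287). RRM2, the cell-cycle-regulated subunit of ribonucleotide reductase, had 8410.4, 6765 and 6281 in MALC, against 10319, 8899 and 8826 in suspension (log2 change -0.39, SE 0.11, adjusted p = 0.025). In both, MALC 1 came near the lowest suspension value. RRM1, the large subunit of the reductase, was lower by a log2 change of -0.36 (adjusted p = 0.0261), and TK1, the cytosolic thymidine kinase of the S phase, by -0.33 (adjusted p = 0.0234). DUT, which removes dUTP, was lower by -0.25 (adjusted p = 0.0102). The groups did not overlap in any of these genes.

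The calls of TYMS, RRM2, RRM1 and TK1 were lost in some of the fits that left out 1 sample. Of the 7 lower genes of this branch, 3 passed without MALC 2, without MALC 3 or without suspension 1, 4 without suspension 2, 5 without suspension 3 and 7 without MALC 1. Over these fits and the other alternatives the adjusted p of RRM1 reached 0.138, while the direction stayed lower. DCK, the kinase that salvages deoxycytidine and activates several nucleoside drugs, had a log2 change of -0.01 (95% interval -0.15 to 0.12, adjusted p = 0.856). DCTD, the deaminase of dCMP, had -0.02 (95% interval -0.29 to 0.26, adjusted p = 0.929) at a mean signal of 140.4 ± 24.8 in MALC and 141 ± 11.7 in suspension (SD, n = 3 each). Their MALC and suspension values overlapped.

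Of the 3 tested folate genes MTHFD1 was lower, SHMT2 was higher and MTHFD2 did not pass. MTHFD1 encodes the trifunctional cytosolic enzyme that supplies formyl folate to purine synthesis. It had signals of 3294, 3028 and 2758 in MALC, against 5405, 4835 and 4619.9 in suspension (log2 change -0.71, SE 0.086, adjusted p = 0.00083). The other probe set of MTHFD1 lay below the filter over all samples and was not tested. Its signals went the other way, with 84.7, 57.5 and 58.6 in MALC, against 18.5, 32.6 and 35.6 in suspension. SHMT2, the mitochondrial enzyme that takes the carbon from serine, had 7242, 6313 and 6516 in MALC, against 6069.7, 5229 and 5333 in suspension (log2 change 0.27, SE 0.077, adjusted p = 0.0245). The lowest MALC value of SHMT2 was only slightly above the highest suspension value. It no longer passed when MALC 3 was left out (adjusted p = 0.056), when suspension 2 (0.0854) or suspension 3 (0.084) was, with the mean of its probe sets (0.141), or with samples 2 and 3 of each group averaged (0.138). Without the _s_at and _x_at probe sets, which can match several transcripts, its log2 change was -0.03 (adjusted p = 0.892).

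MTHFD2, the mitochondrial dehydrogenase and cyclohydrolase, had 9966, 8211.5 and 8081 in MALC, against 9287, 8742 and 9051 in suspension (log2 change -0.05, adjusted p = 0.641). Its MALC samples lay on both sides of the suspension samples. Without MALC 1 the log2 change was -0.15 and passed (adjusted p = 0.0219). SHMT1, the cytosolic partner of SHMT2, and MTHFD1L, the mitochondrial formyl folate synthetase, were not tested. The probe sets that name them alone lay below the filter in both groups. For SHMT1 they had mean signals of 36.9 ± 1.59 and 35.1 ± 2.88 in MALC, against 36.2 ± 2.64 and 37.3 ± 1.19 in suspension, and for MTHFD1L 21.9 ± 2.84 and 36.5 ± 2.24 in MALC, against 24.98 ± 4.03 and 38.9 ± 3.18 in suspension (SD, n = 3 each).

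Serine is made from a glycolytic intermediate by PHGDH, PSAT1 and PSPH in turn, and none of the 3 passed. PHGDH, the entry step, had signals of 2389, 1928 and 1961 in MALC, against 1989, 1738 and 1690.5 in suspension (log2 change 0.21, adjusted p = 0.144). PSAT1, the transaminase, had 4984, 3201 and 3265 in MALC, against 5042, 4105 and 4282 in suspension (log2 change -0.25, adjusted p = 0.259). PSPH, the phosphatase, had 1262, 1467 and 1235 in MALC, against 1466, 1529.7 and 1670.5 in suspension (log2 change -0.23, adjusted p = 0.0685). All 3 overlapped between the groups. With the sample number as a block, PHGDH passed as higher (adjusted p = 0.0244) and PSAT1 as lower (0.0447). Without MALC 1, PSAT1 changed by -0.46 and passed (adjusted p = 0.00415), and without MALC 2, PSPH passed at -0.31 (0.043). With all samples, the other probe set of PSAT1 changed by 0.02 (adjusted p = 0.933 in the fit over probe sets), with overlapping groups.

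**Figure D3:**
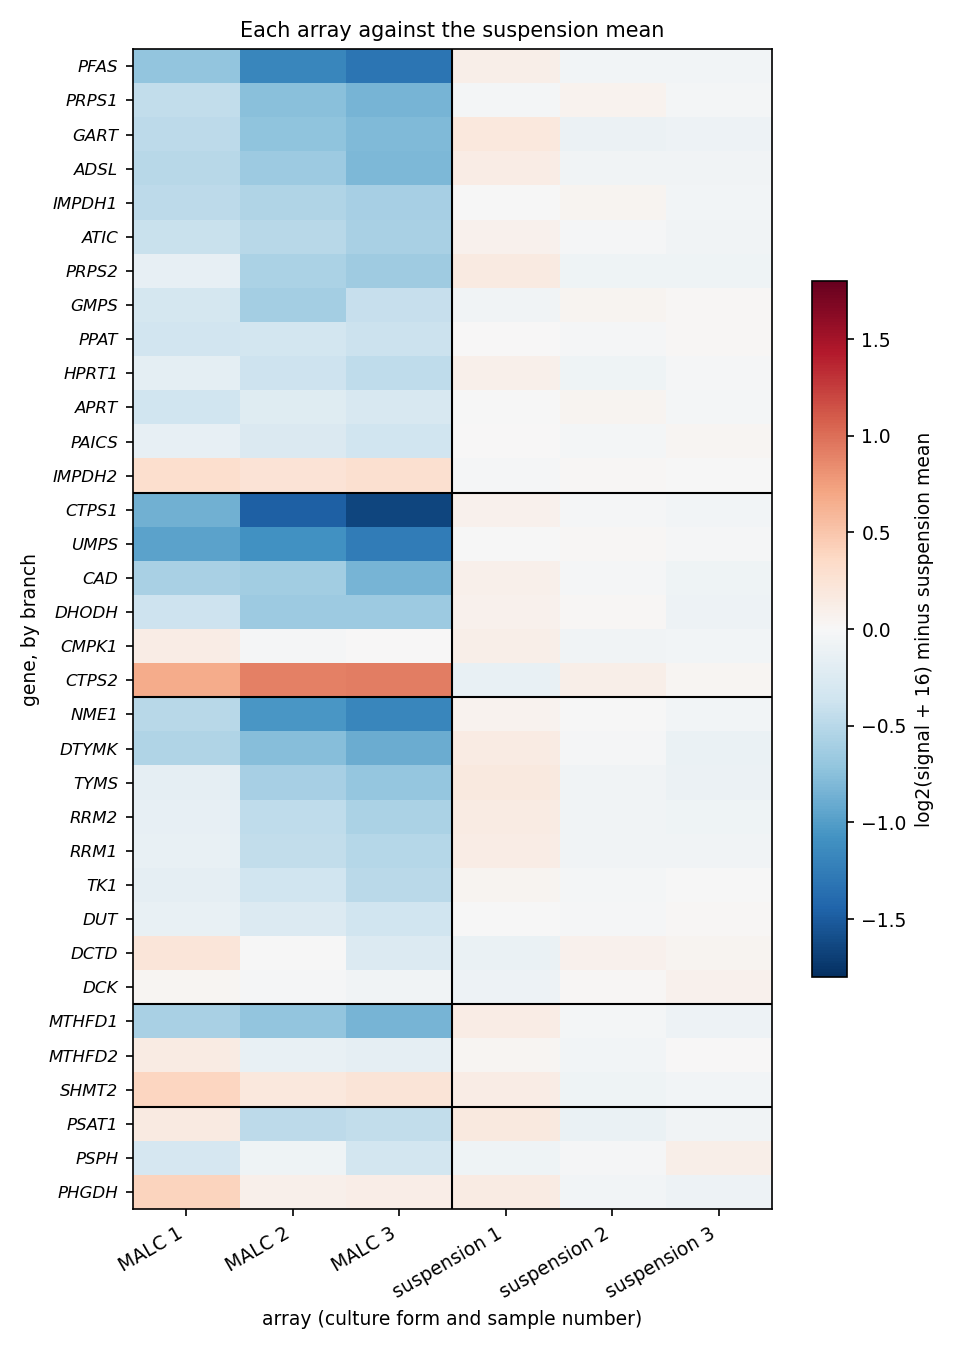
Difference of each array from the suspension mean, on the log2(signal + 16) scale, for the 34 tested genes (rows, by branch) in 3 MALC and 3 suspension arrays (columns); blue is lower and red higher than the suspension mean. Among the 24 genes lower in MALC the median difference was -0.39 in MALC 1, -0.61 in MALC 2 and -0.65 in MALC 3.

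Sample 1 of MALC stood apart from the other MALC samples in the genes that fell. It was the highest of the 3 in 22 of the 24 lower genes (91.7%), and in 76.5% of the 3266 genes lower over the whole table. The median difference from the suspension mean over the 24 genes was -0.39 in MALC 1, -0.61 in MALC 2 and -0.65 in MALC 3. Over all lower genes it was -0.31, -0.45 and -0.49 in the same order. Sample 1 of suspension was also the highest of its group in 16 of the 24 genes (66.7%), against 58.6% of all lower genes. Over all probe sets (Pearson, log2 scale), the correlation of sample 2 with sample 3 was 0.9984 in MALC and 0.9985 in suspension, while that of sample 1 with either was 0.9949 to 0.9955.

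The array medians lay between 80.7 and 81.7, and precision is limited by having 3 arrays a group. None of the 5 tested B cell markers (of 6 listed) passed; MS4A1, which encodes CD20, had a signal of 12586 ± 1104 in MALC and 13174 ± 2011 in suspension (SD, n = 3 each). Of the T cell markers, CD3D, CD3E and CD3G had signals of 51.3 to 104 in MALC and 57.4 to 114 in suspension, CD2 lay below the filter, and CD247 was lower in MALC (log2 change -0.71, adjusted p = 0.000864; 243 ± 22.7 in MALC and 407 ± 28.8 in suspension). Myeloid CD14 and S100A8 and the stromal and endothelial COL3A1 and CDH5 lay below the filter, and no tested marker of these types passed. COL1A2 had 46.3, 46.0 and 54.2 in MALC, against 54.1, 347 and 127 in suspension. The part of these markers in the results was not tested.

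The different probe sets of a gene did not always pass together. The 36 genes had 86 probe sets, of which 74 passed the filter, and 44 of these were lower and 6 higher in MALC, against 20.4% and 21.2% of the 32768 probe sets that passed. Of the 40 that did not stand for their gene in the gene test, 22 passed in the direction of the one that did, 17 did not pass and 1 passed in the opposite direction. The opposite one belonged to PPAT and was dim, with signals of 178, 183 and 187 in MALC, against 146, 105 and 125 in suspension (log2 change 0.50, adjusted p = 0.0076). The other PPAT probe set was lower (log2 change -0.39, adjusted p = 0.0055). With the mean of its probe sets PPAT had a log2 change of -0.08 (adjusted p = 0.365).

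For several genes the size of the change, or whether it passed, depended on the probe set. RRM2 changed by -0.39 in its brightest probe set and by -0.96 in the other (adjusted p = 0.00787), where the signals were 4876, 3016 and 2568 in MALC, against 6790.3, 6413 and 6482 in suspension. DUT changed by -0.25 in its brightest probe set and by -0.84 in its dimmest (adjusted p = 0.00451). CTPS2 was higher in both of its probe sets, by 0.83 and by 0.37, the second with signals of 567, 567 and 542 in MALC, against 428, 437 and 422 in suspension (adjusted p = 0.00392). UMPS was lower in both of its bright probe sets (log2 change -1.10 and -1.04), and not past the threshold in 2 dim ones with group means near the filter (log2 change -0.22 and -0.08). SHMT2 was higher in 2 probe sets (log2 change 0.27 and 0.38) and changed by -0.03 in the remaining one (adjusted p = 0.891). GART was lower in its brightest probe set and in others (log2 change -0.98, -0.65 and -0.48). Its further probe sets did not pass, at -0.17, -0.15, -0.12 and 0.03, with overlapping groups. RRM1 was lower in its brightest probe set. Its other one changed by -0.19 and did not pass (adjusted p = 0.273), with overlapping groups.

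Promoter windows of 300 bases from RefSeq (GRCh38.p14) were found for 32 of the 36 genes, 47 windows in all; ADSL, IMPDH2, SHMT2 and PSPH had none in that table. They were searched on both strands for 3 motifs known from nucleotide synthesis genes: the E-box CACGTG, which MYC with MAX can bind; the E2F motif in the forms TTTCCCGC, TTTGGCGC and TTTCGCGC; and TGATGNAA, which ATF4 can bind. A gene was counted when any of its windows held the motif. An E-box was present in 8 of the 32 genes (25%), against 12.2% of the 10941 tested genes with a window and 8.77% of all 27305 genes with a window. PPAT and PAICS are counted as 2 of the 8 although they share a single site. An E2F motif was present in 5 of the 32 (15.6%), against 5.2% of the tested genes and 3.3% of all genes with a window. The ATF4 motif was present in 2 (6.25%), against 2.96% of the tested genes and 4.46% of all genes with a window. A match describes the letters in the window and no binding was measured.

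The windows that hold an E-box belonged to 6 genes lower in MALC (PPAT, PAICS, ATIC, DHODH, MTHFD1 and NME1). The others were those of DCK, which did not pass, and MTHFD1L, which was not tested. Most genes with a window were lower in any case, 23 of the 32. Of the rest, 1 was higher, 6 did not pass and 2 were not tested. Whether an E-box goes with the fall was not tested. The stretches below show, for the genes of the purine, pyrimidine, folate and deoxynucleotide branches that were lower, the E-box in capitals with its neighbouring bases, on the gene's own strand. They lie at chr2:215312001-215312030 (ATIC, plus strand, the first of its 2 E-boxes), chr16:72008573-72008602 (DHODH, plus), chr14:64388326-64388355 (MTHFD1, plus) and chr17:51153579-51153608 (NME1, plus). DCK, whose signal did not pass, is set beside them (chr4:70993521-70993550, plus).
ATIC: gggccggcgggcCACGTGataagcccggaa
DHODH: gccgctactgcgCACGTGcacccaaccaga
MTHFD1: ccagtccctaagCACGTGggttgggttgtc
NME1: caagtgctgcgaacCACGTGggtcccgggc
DCK: cgccccggccttCACGTGacctggcgtgcg

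Of the 32 genes with a window 23 were lower in MALC. E2F motifs were found for 4 of those 23, DUT, TYMS, GART and PRPS2, and for DCK. They are shown in capitals for the enzymes of the deoxynucleotide branch that were lower: for DUT, which had 2 of them in overlapping stretches, at chr15:48332144-48332173 and chr15:48332159-48332188 (plus strand), and for TYMS at chr18:657603-657632 (plus strand). The motif lies on the opposite strand in the first DUT stretch and in TYMS.
DUT, first: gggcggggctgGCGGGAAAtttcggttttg
DUT, second: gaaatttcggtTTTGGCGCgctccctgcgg
TYMS: gcgggacggccGCGGGAAAaggcgcgcgga

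The ATF4 motif was found for DCTD and MTHFD1L, and it did not occur in the windows of PHGDH and PSAT1. CTPS2, the only gene higher in MALC with a window, held none of the 3 motifs.

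The other genes of the same routes were described from a list of 89, of which 66 were tested. In MALC 21 of them were lower, 12 were higher and 33 did not pass, with a median log2 change of -0.09. Over all genes tested 23.7% were lower and 19.0% higher, and the counts of the single lists below are to be read against these shares. With the sample number as a block 24 of the 66 were lower and 13 higher. Among 17 other purine genes 5 were lower and 7 higher. The largest rises were AK4, a mitochondrial adenylate kinase, and AK1, its cytosolic relative. AK4 had signals of 1482, 1764 and 1744 in MALC, against 344, 404 and 386 in suspension (log2 change 2.09, SE 0.096, adjusted p = 4.3e-05). AK1 had 445, 1004 and 1096 in MALC, against 135, 247 and 226 in suspension (log2 change 1.93, SE 0.35, adjusted p = 0.00391), so that sample 1 was the lowest in both groups. PNP, the nucleoside phosphorylase of purine salvage and breakdown, was lower (log2 change -0.86, adjusted p = 0.000229), as was ITPA, which removes inosine triphosphate (log2 change -0.75, adjusted p = 0.00317).

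Of 12 other folate genes 6 were lower and none was higher. SLC25A32, the carrier that brings folate into mitochondria, had signals of 2291, 1659 and 1521 in MALC, against 4057, 4054 and 4149 in suspension (log2 change -1.18, SE 0.14, adjusted p = 0.000763). SLC19A1, the reduced folate carrier of the cell surface, had 259.9, 221 and 189.6 in MALC, against 419.9, 439 and 412 in suspension (log2 change -0.89, SE 0.11, adjusted p = 0.000824). Both were below suspension in every MALC sample. The other genes of folate uptake on the list did not pass: SLC46A1 had a log2 change of -0.11 (adjusted p = 0.146), FOLR1 of 0.26 (adjusted p = 0.12) and FOLR2 of 0.0039 (adjusted p = 0.971), named after their values were seen.

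Of 9 other genes of deoxynucleotide and triphosphate pools 4 were lower and 1 higher. DCTPP1, a pyrophosphatase of dCTP, changed by -0.91 (adjusted p = 0.00116), and SAMHD1, which breaks down deoxynucleotide triphosphates, by -0.66 (adjusted p = 0.00221). NME3, a relative of NME1, was higher (log2 change 0.49, adjusted p = 0.011). Of 11 other pyrimidine genes none was lower, and TK2, the mitochondrial thymidine kinase, was higher (log2 change 0.45, adjusted p = 0.027). Of 17 other genes of serine, glycine and methyl group metabolism 6 were lower and 3 higher. GCSH, of the glycine cleavage system, changed by -0.80 (adjusted p = 0.00281) and MTRR, which restores methionine synthase, by -0.57 (adjusted p = 0.000894). SLC38A2, a carrier of neutral amino acids, was higher (log2 change 0.49, adjusted p = 0.00601), and so was AMT, also of the glycine cleavage system (log2 change 0.35, adjusted p = 0.00388). The other 23 listed genes were not analysed here.

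**Figure D4:**
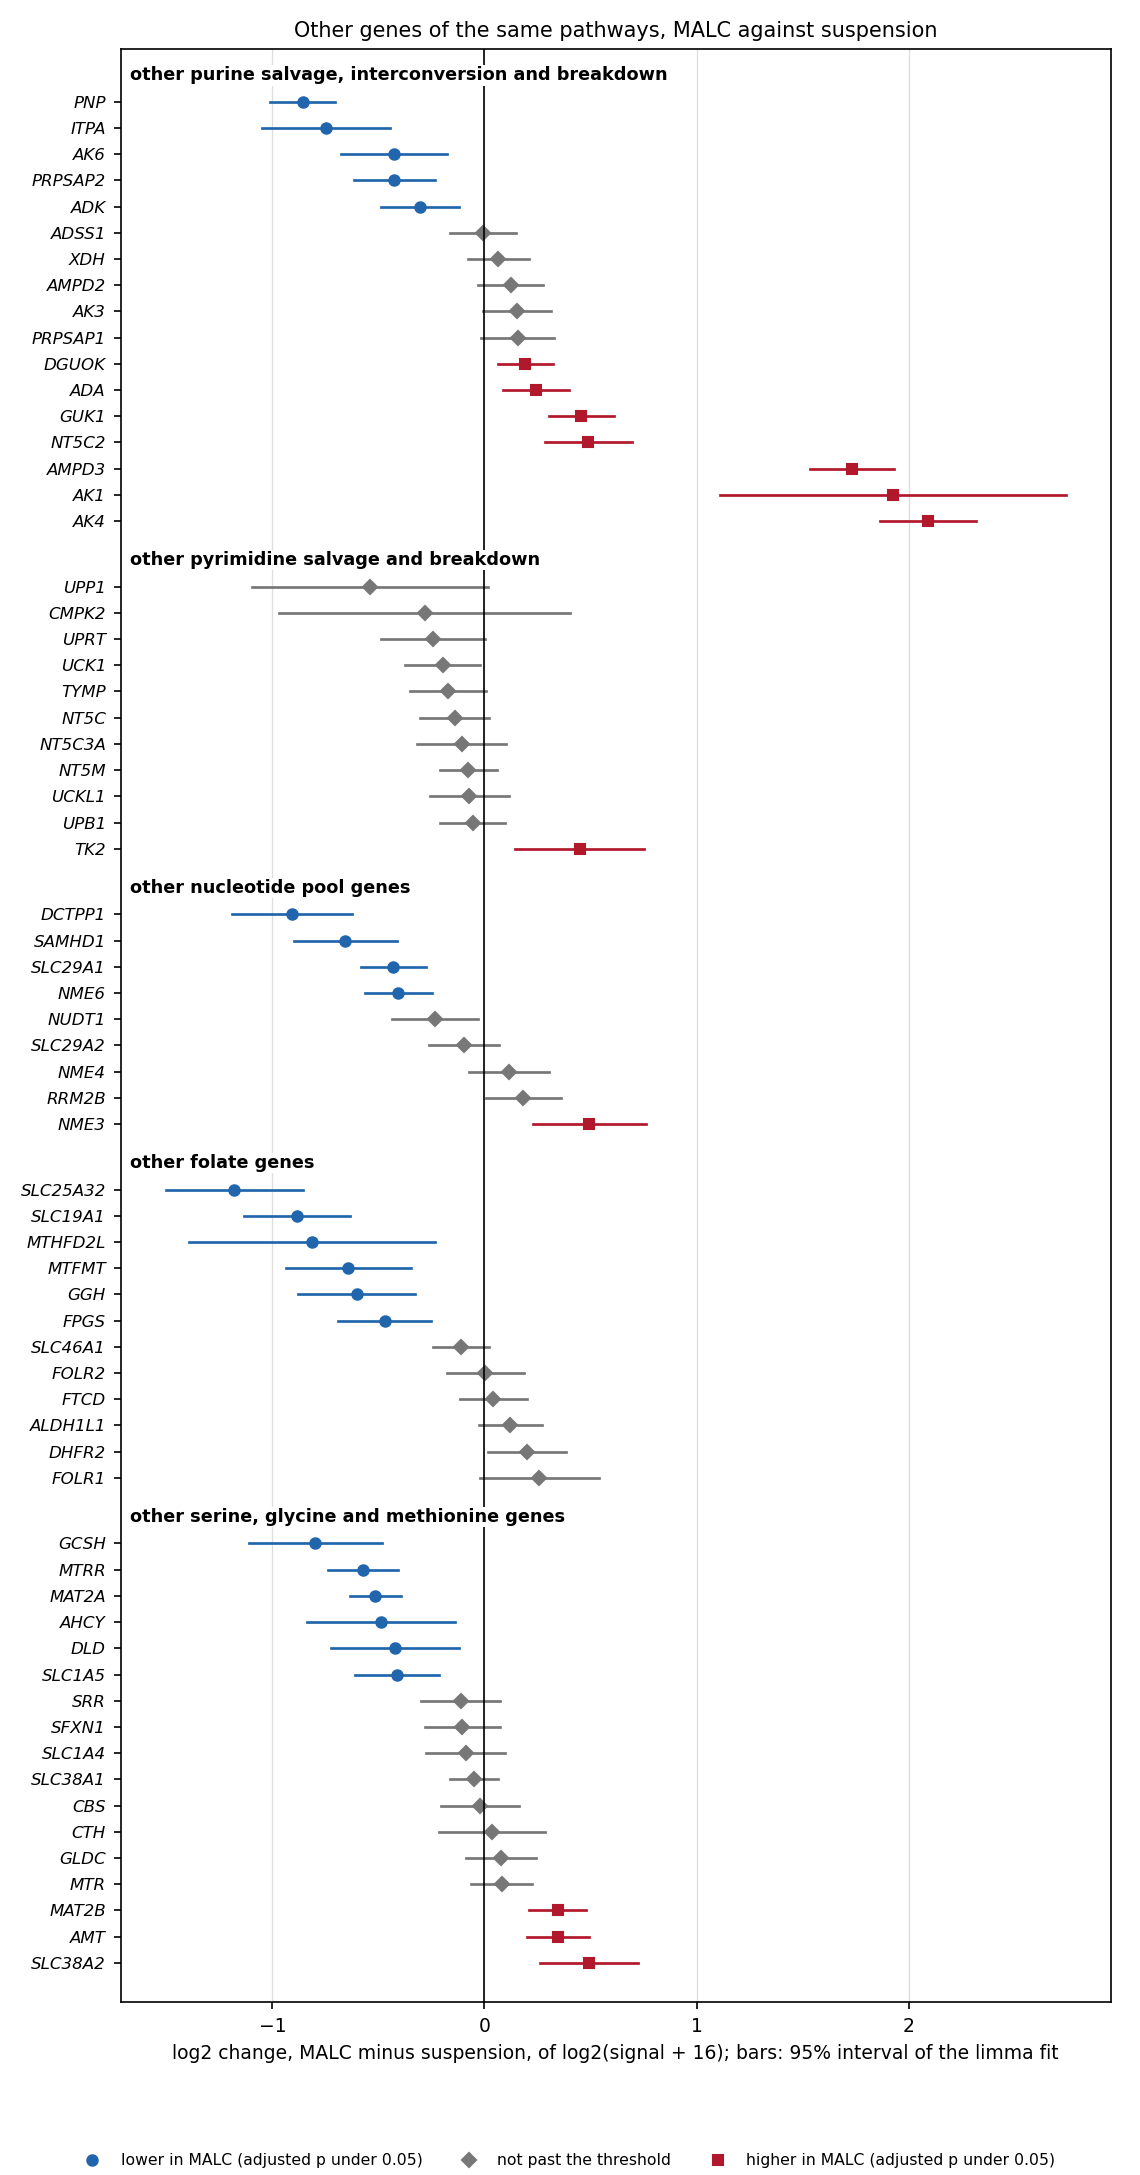
Log2 change, MALC minus suspension, of log2(signal + 16) for 66 other genes of the same pathways, by list; points are estimates and bars the 95% intervals of the limma fit. The changes run from -1.18 (SLC25A32) to 2.09 (AK4), with 21 genes lower in MALC, 12 higher and 33 not past the threshold.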

How the data were processed

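The authors deposited linear intensities for 54675 probe sets on each of 6 arrays (3 MALC, 3 suspension). Per the submitters' processing notes MAS5 was used; its version, role and settings are not given in the sources used here. A shift of all transcripts would go unseen if the arrays had been scaled to a common level. No detection calls were used. Groups and sample numbers came from the titles.

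The test was run on log2(value + 16), a scale that understates changes of dim genes. Of the probe sets, 32768 whose mean reached the 40th percentile (a signal of 53.4) entered, and the brightest one with 1 symbol stood for a gene, which gave 13765 genes. The model was limma 3.58.1 (R 4.3.3; lmFit, eBayes with trend, two-sided), with Benjamini-Hochberg adjustment over all genes and a threshold of 0.05; it was also run over probe sets and tested on simulated data. Means ± SD are of linear intensities. Promoter windows came from RefSeq (GRCh38.p14).

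The genes and lists were chosen with earlier results of these data known. Values in every sample are given for up to 4 members of each branch with the largest change, those that rose and the isoenzyme pairs, and, added after their values were seen, for PPAT, PAICS, DHODH, MTHFD2 and the serine genes. Of each other list, up to 2 rises and 2 falls are named.

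Sample numbers 1 to 3 recur in both groups, and what they mark is not stated. Same-numbered samples deviated together (correlations of their deviations from group means 0.28, 0.18 and 0.19), but MALC 2 with suspension 3 gave 0.15 and MALC 3 with suspension 2 gave 0.20, so 2 and 3 were not told apart. The blocked value stands beside each member whose call it changed, and the blocked counts beside those of the other pathway genes. Alternatives, 16 listed at the start and 2 added after seeing the data, covered normalization, pseudocount, filter, probe set, trend, the replicate block and samples left out or averaged.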

Additional observations from a re-analysis of the deposited data

How the results depend on the processing

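Of the lower genes 16, and of the higher genes 2 (IMPDH2 and CTPS2), kept their call in each of the 16 alternatives listed at the start that tested them; 12 and 2 did so in both added ones too. Over the 18 alternatives 13 to 27 genes were lower (24 in the report). With samples 2 and 3 of each group averaged to 1 sample (added), 13 genes were lower, 6 of them purine and 2 deoxynucleotide genes, 0 folate genes were higher, and 12 other pathway genes were lower and 5 higher; 2344 genes passed in all, against 5877. With the samples numbered 1 left out (added), 2 folate and 2 serine genes were lower and 1 serine gene higher, and 7724 genes passed; samples 2 and 3, left alone there, were nearly alike. Leaving out 1 sample at a time gave 3 to 7 lower deoxynucleotide genes, 1 to 2 lower and 0 to 1 higher folate genes, and 0 to 1 lower serine genes. The replicate block gave 1 lower and 1 higher serine gene (PSAT1 and PHGDH) and changed no other member's call. With the mean of probe sets 0 folate genes were higher. Without _s_at and _x_at probe sets, which can match several transcripts, 0 folate and 7 other pathway genes were higher, UMPS changed by -0.08 (adjusted p = 0.276), PPAT by 0.50 and SHMT2 by -0.028. Directions near 0 also turned: CMPK1 changed by -0.11 with the mean of probe sets, DCK by 0.016 and MTHFD2 by 0.022 after quantile normalization, and DCTD by 0.073 and DCK by 0.020 with samples averaged. With 1 sample left out CMPK1 ranged over -0.0047 to 0.097, DCTD over -0.13 to 0.10, DCK over -0.061 to 0.024 and MTHFD2 over -0.15 to 0.0036. The cause of these shifts was not tested.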
